A study of Mus musculus with 16 samples.

Results

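Transcribed chromatin bins that the H3K27me3-RADIP table listed and the Input table did not are described here. Each pair was placed in a 25-kb bin by the centre of its DNA tag. A bin was taken when it held at least 20 significant RNA–DNA pairs in H3K27me3-RADIP, none in Input, and at least 1 RNA tag centre in H3K27me3-RADIP, so that RNA made in the bin itself was also captured. Of 49063 bins with a DNA tag in either table, 588 met this rule. H3K27me3-RADIP listed 25382 bins with at least 20 pairs, of which 20283 were transcribed in this sense, so the 588 bins were 2.9% of the bins that could have met it. This share was set by the rule and is a description.

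The cells were PGK12.1, a mouse embryonic stem cell (mESC) line, fixed in 1% formaldehyde for both groups. For H3K27me3-RADIP, chimeras of RNA, adaptor and DNA were pulled down with an antibody against H3K27me3, and Input libraries were made from lysate that saw no antibody. The labels list 8 libraries per group, but they are not 8 biological replicates, as the methods name fewer and the labels do not tie libraries to them. The authors merged them, so each group is 1 table without replicate error. The 2 tables are therefore compared, not the conditions, no test was made, and the intervals given are 95% Wilson intervals that cover counting error only. Pairs of an RNA in a bin were listed or left out together, in 1442 such combinations with a median of 10 pairs in the bins taken. Intervals of pair shares treat pairs as independent and are therefore too narrow. H3K27me3-RADIP held 1415135 pairs and Input 1305107, a ratio of 1.084. A bin absent from Input had no pair that passed the authors' q-value limit of 0.1, which does not mean that it had no reads. Of 12 embryonic stem cell markers, RNA of 8 was listed in H3K27me3-RADIP and of 7 in Input, with summed levels of 4565 and 4316 pairs. Most of these were of Esrrb (2500 and 2388) and Tet1 (1395 and 1302). Pou5f1, Nanog, Dppa4 and Tdgf1 had 0 pairs in both tables. Of 5 fibroblast markers, a different 1 was listed in each table: Col1a1 with 7 pairs in H3K27me3-RADIP only and Pdgfra with 7 in Input only. In such pooled cells, fewer cells of a type and less RNA per cell cannot be told apart.

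H3K27me3 is written by Polycomb repressive complex 2, whose catalytic subunit is EZH2 or EZH1. In mESCs the mark covers CpG-rich promoters of developmental genes that are silent or barely transcribed. RADIP ligates an RNA to DNA that lies near it in fixed nuclei and then selects the ligated molecules by the chromatin they sit on, so each pair gives the gene of an RNA and the place on chromatin where the RNA was found.

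Promoters of 5 of the bins with the most pairs are shown because their RefSeq starts span a range of CpG content, from hardly any CG to among the richest. Each line is the 250 bases that precede the RefSeq start of the gene (GRCm38), 5′ to 3′ on the strand of the gene, with each CG in capitals. Hmx1 (chr5:35388611-35388860, plus strand) encodes a homeobox factor, and Wnt3a (chr11:59290752-59291001, minus strand) a secreted Wnt ligand. Sema6b (chr17:56140344-56140593, minus strand) encodes a transmembrane semaphorin, Tfap2a (chr13:40734921-40735170, minus strand) the AP-2 alpha transcription factor, and Tmprss9 (chr10:80879566-80879815, plus strand) a membrane serine protease.
Hmx1: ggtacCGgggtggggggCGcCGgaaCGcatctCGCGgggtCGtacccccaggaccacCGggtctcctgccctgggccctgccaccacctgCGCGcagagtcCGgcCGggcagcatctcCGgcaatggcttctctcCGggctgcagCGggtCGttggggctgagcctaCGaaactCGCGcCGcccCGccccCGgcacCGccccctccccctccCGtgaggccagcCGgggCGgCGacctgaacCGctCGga
Wnt3a: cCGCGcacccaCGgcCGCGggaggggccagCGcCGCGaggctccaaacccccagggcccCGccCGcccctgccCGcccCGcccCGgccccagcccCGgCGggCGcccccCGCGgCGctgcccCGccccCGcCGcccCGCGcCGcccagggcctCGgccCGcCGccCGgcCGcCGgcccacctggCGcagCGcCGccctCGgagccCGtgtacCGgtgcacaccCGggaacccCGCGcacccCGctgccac
Sema6b: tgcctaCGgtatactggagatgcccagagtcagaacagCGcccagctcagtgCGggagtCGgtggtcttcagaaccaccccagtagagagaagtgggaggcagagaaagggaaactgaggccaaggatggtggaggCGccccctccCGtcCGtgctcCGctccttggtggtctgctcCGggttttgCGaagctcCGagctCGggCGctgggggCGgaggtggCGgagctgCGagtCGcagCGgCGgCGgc
Tfap2a: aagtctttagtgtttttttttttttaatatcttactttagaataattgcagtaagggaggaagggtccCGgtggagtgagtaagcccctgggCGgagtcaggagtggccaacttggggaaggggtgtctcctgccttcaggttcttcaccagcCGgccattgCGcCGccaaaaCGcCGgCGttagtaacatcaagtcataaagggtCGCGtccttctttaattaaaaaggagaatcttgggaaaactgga
Tmprss9: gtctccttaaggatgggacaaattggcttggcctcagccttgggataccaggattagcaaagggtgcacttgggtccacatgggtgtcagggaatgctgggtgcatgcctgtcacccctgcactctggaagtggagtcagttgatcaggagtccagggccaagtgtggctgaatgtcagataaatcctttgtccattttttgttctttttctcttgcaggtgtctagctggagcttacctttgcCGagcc
The printed stretches hold 29 CG for Hmx1, 41 for Wnt3a, 20 for Sema6b, 10 for Tfap2a and 1 for Tmprss9. Counted over 300 bases, which add the first 50 bases after the start, 6.68% of 20150 promoters of protein-coding genes held as many CG as Hmx1. The same share was 2.56% for Wnt3a, 17.7% for Sema6b, 56.4% for Tfap2a and 95.6% for Tmprss9. CG is its own reverse complement, so both strands give the same count. The GENCODE models of Tmprss9 and Tfap2a start farther upstream, at chr10:80871848 and chr13:40738376. Whether the stretches shown for them are their main promoters was not tested.

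The 588 bins held 16479 pairs, 1.16% of the H3K27me3-RADIP table. The median was 25 pairs per bin, the quartiles were 22 and 31, and the highest was 91. Many lay close to the limit: 270 bins had 20 to 24 pairs, 76 had exactly 20, and 82 other bins missed the rule only by having 19. A bin that Input did list had at least 7 Input pairs, which was also the smallest number for any combination of an RNA and a bin, and 57 transcribed bins of at least 20 H3K27me3-RADIP pairs had exactly 7 in Input. Pairs in a bin came from few RNAs, although on average from more than in the sets of bins compared below. In 31 bins a single RNA made all pairs, in 330 there were 2 RNAs, in 177 there were 3, in 36 there were 4, and 14 had 5 to 8. The leading RNA supplied a median of 54.5% of the pairs of its bin.

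The bin with the most pairs and the most RNAs was chr5:35375001-35400000, where Hmx1 starts. It held 91 pairs of 8 RNAs in H3K27me3-RADIP and 0 in Input. Hmx1 RNA itself made 12 pairs and the lncRNA E130018O15Rik made 11, both at median distances under 2 kb (1.79 and 1.29 kb). The 250 bases before the starts of these 2 genes overlap on opposite strands, while the gene models themselves do not overlap. The other pairs came from 6 genes elsewhere on chromosome 5: Trmt44 with 12 pairs at 172 kb, Sh3tc1 with 13 at 341 kb, Rgs12 with 12 at 382 kb, Sorcs2 with 8 at 807 kb, Fam193a with 14 at 963 kb and Apbb2 with 9 at 30997 kb. Thus 68 of the 91 pairs were over 100 kb long. All 23 local RNA tags lay in pairs whose DNA tag was in the same bin, and Input had no RNA tag there.

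The bin chr10:80875001-80900000 came next with 78 pairs, and there local RNA led. Tmprss9 made 30 pairs at a median of 2.83 kb and Timm13, a mitochondrial import chaperone gene, made 13 at 2.67 kb. Lmnb2, which encodes a nuclear lamin, made 15 pairs at 18.5 kb, Dot1l, the H3K79 methyltransferase gene, 10 at 122 kb, and Map2k2 10 at 228 kb. The bin chr4:120250001-120275000 within Foxo6, a forkhead factor gene, held 70 pairs, of which Foxo6 RNA made 23 and Scmh1, a Polycomb group gene, made 14 from 207 kb away.

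At Sema6b, chr17:56125001-56150000 held 68 pairs, with 16 from Sema6b and 12 to 14 from each of Hdgfl2, Chaf1a, Ptprs and Safb2. At Sema7a, chr9:57925001-57950000 held 68 pairs, led by 18 of Pml, the gene of the nuclear body scaffold, at 283 kb, with 12 of Sema7a itself. At Wnt3a, chr11:59275001-59300000 held 64 pairs, with 19 of Arf1 at 64.0 kb and 11 of Wnt3a. The Rgs10 bin, chr7:128400001-128425000, also held 64 pairs but none from an RNA tag in the bin, although it had 2 RNA tags of Rgs10. Its pairs were led by 23 of Fgfr2 at 4613 kb and included 9 of the imprinted lncRNA Kcnq1ot1 at 14867 kb. In the bin of Bmp1, the procollagen C-proteinase gene (chr14:70500001-70525000), 21 of 61 pairs were of Xpo7 and 17 of Bmp1. In the Tent5b bin (chr4:133475001-133500000) 14 of 59 were of Wdtc1 and 8 of Tent5b. In the Tfap2a bin (chr13:40725001-40750000) 28 of 56 were of Gcnt2 at 187 kb, 18 of Jarid2, a PRC2 cofactor gene, at 4091 kb, and 10 of Tfap2a. In the Il4ra bin (chr7:125550001-125575000) 20 of 55 were of Il4ra, the interleukin-4 receptor gene.

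In these 11 bins a local RNA led in 4 and an RNA from elsewhere in 7. Same-bin pairs ranged from 0 to 32 and pairs over 100 kb from 18 to 68. No pair in them joined different chromosomes. In Input 10 of the 11 bins had no RNA tag and the other, at Sema7a, had 1. An annotated protein-coding start lay in 9 of them in the GENCODE release used, and not in the Tmprss9 and Foxo6 bins.

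**Figure D1:**
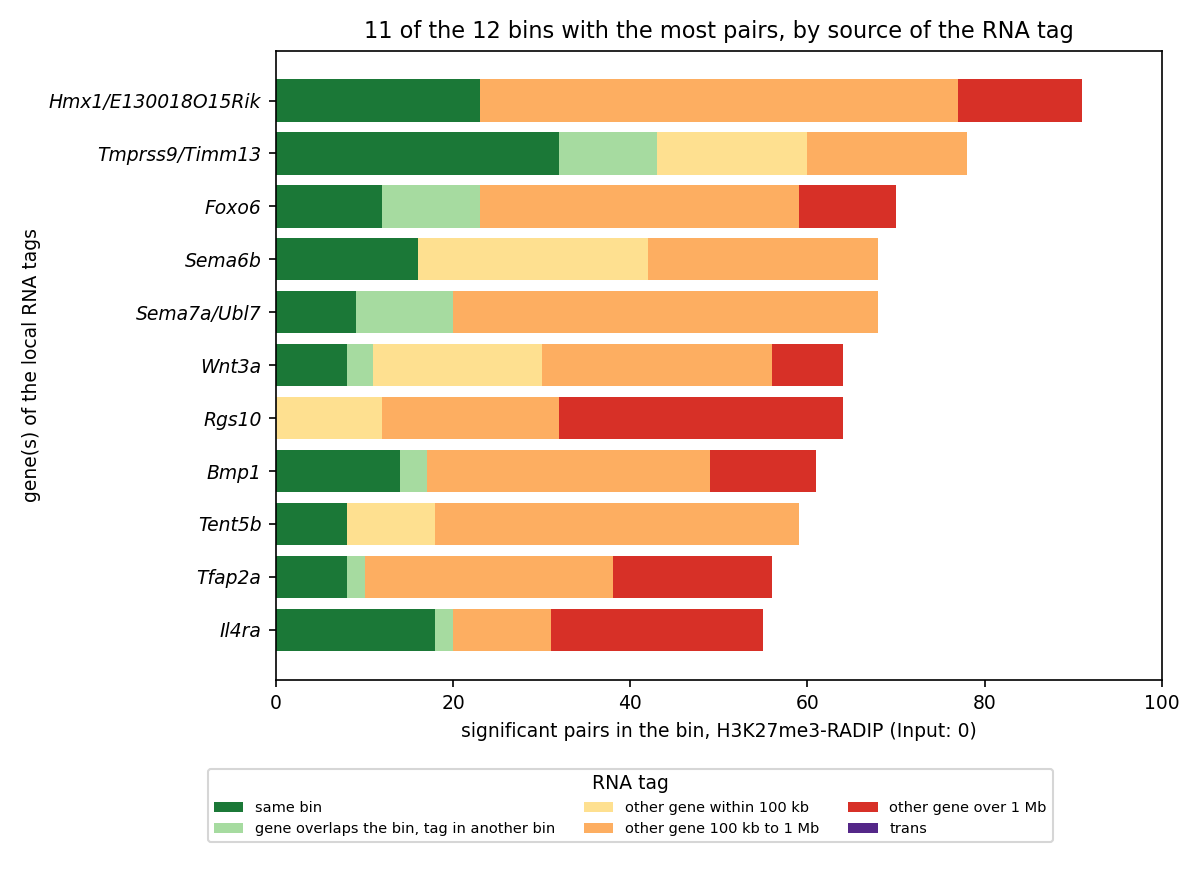
Number of significant H3K27me3-RADIP pairs (horizontal axis) in 11 of the 12 bins with the most pairs, each named on the vertical axis by the genes of its local RNA tags, with colours for where the RNA tag lay. The Hmx1 bin reached 91 pairs, same-bin pairs (dark green) ran from 0 at Rgs10 to 32 at Tmprss9, and no bin had a pair with another chromosome.

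Over all 588 bins, 27.5% of the pairs (26.8–28.2%) came from an RNA tag in the same bin. RNA of a gene that overlaps the bin made 42.0% of the pairs (41.3–42.8%). The bin lay downstream of the RNA's gene in 33.2% of the pairs and upstream of it in 23.9%. Pairs over 100 kb were 52.1% (51.4–52.9%), pairs over 1 Mb were 14.4%, and 133 pairs in 14 bins, 0.807%, were *trans*, that is between chromosomes. The median *cis* distance was 120 kb. At least 1 pair from an RNA tag of the same bin was present in 537 bins, and at least 1 over 100 kb in 543. In 41 bins every pair came from genes that overlap the bin, and in 48 none did.

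The same shares were taken in transcribed bins of 20 to 40 pairs that both tables listed (9898 bins, a range chosen after the values were seen), and in the mirror set of 386 bins with at least 20 Input pairs, a local Input RNA tag and no H3K27me3-RADIP pair, which were 1.96% of 19703 such Input bins. Genes that overlap the bin made 68.3% of the pairs in the bins of both tables and 63.4% in the Input-only bins, against 42.0% in the 588 bins. Pairs over 100 kb were 33.7% and 32.7%, against 52.1%. Pairs over 1 Mb were 5.61% and 5.50%, against 14.4%. The median distance was 35.6 and 32.6 kb, against 120 kb. Of all pairs, 43.5% in H3K27me3-RADIP and 36.2% in Input were over 100 kb. The share of long pairs was higher in the 588 bins than in any of these. With a minimum of 10 pairs per bin it was 41.5%, below that of all H3K27me3-RADIP pairs. In the 400 bins listed only in H3K27me3-RADIP without local RNA it was 82.4%. A single RNA made all pairs in 5.27% of the 588 bins and in 10.25% of these 400. The share was 40.3% in the bins of both tables with 20 to 40 pairs and 23.6% in the Input-only bins. The mean number of RNAs per bin was 2.45 in the 588 bins. It was 1.74 in the bins of both tables with 20 to 40 pairs and 1.89 in the Input-only bins. The rule that chose the bins acts on these same pairs, so the differences are descriptions, and whether they would differ between replicates was not tested.

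**Figure D2:**
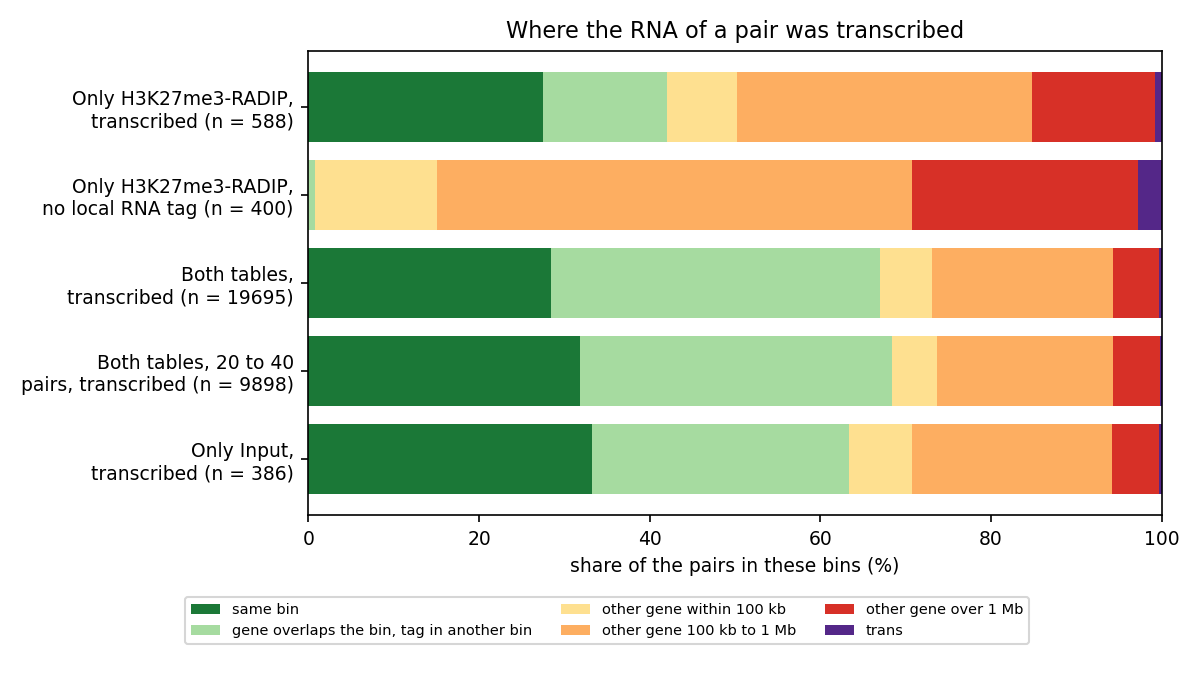
Share of pairs (horizontal axis, percent) by where the RNA tag lay, for 5 sets of bins named on the vertical axis with their number. Dark and light green together, RNA of genes at the bin, reached 42.0% in the 588 transcribed bins listed only in H3K27me3-RADIP, 68.3% in bins of both tables with 20 to 40 pairs and 63.4% in bins listed only in Input.

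Most RNA was intronic. Introns of pcRNAs (RNAs of protein-coding genes) gave 82.7% of the pairs, coding sequence 4.86%, the 3′ UTR 3.50% and the 5′ UTR 1.29%. The intronic share was higher elsewhere, at 86.5% in bins of both tables with 20 to 40 pairs and 86.1% in all of H3K27me3-RADIP. It was 85.25% in the Input-only bins and 84.4% in the bins listed only in H3K27me3-RADIP without local RNA. LncRNAs gave 4.84% (4.53–5.18%), found in 77 bins, against 2.37% in the bins of both tables with 20 to 40 pairs and 1.90% in the Input-only bins. It was 3.50% in all transcribed bins of both tables, 3.61% in all of H3K27me3-RADIP, and 4.76% (4.37–5.18%) in the 400 bins listed only in H3K27me3-RADIP without local RNA, within counting error of the 588 bins. Other classes gave 0.583%. Among the RNA tags made inside the 588 bins, lncRNA was 7.61%. It was 1.93% in the bins of both tables with 20 to 40 pairs, 3.53% in all transcribed bins of both tables and 2.28% in the Input-only bins.

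The pairs were spread over many RNAs, 1114 names in all, of which 921 reached a single bin and 12 reached at least 5. The 10 RNAs with the most pairs supplied 6.20% of them, and all 10 came from elsewhere: none of them had an RNA tag in any of the 588 bins, and all of their pairs there were over 100 kb long or *trans*. Tenm4, a teneurin adhesion gene on chromosome 7, had 192 pairs in 15 bins at a median of 14358 kb. Msi2, an RNA-binding protein gene on chromosome 11, had 171 pairs in 14 bins at a median of 6251 kb. RNA assigned to Fgfr2, an FGF receptor gene on chromosome 7, had 153 in 11 bins at 7511 kb. The gene model of Fgfr2 spans chr7:130162451-133123350, and which part of it the RNA tags came from was not tested. Smyd3 and Enox1 had 82 pairs each, in 8 and 6 bins. Kat6b, a histone acetyltransferase gene, had 71 pairs in 8 bins, Tead1 had 65 in 4, and Nr5a2, a pluripotency-associated nuclear receptor gene, had 63 in 4. Mcph1 with 62 and Setbp1 with 54 pairs reached 5 bins each.

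These RNAs are abundant in both tables, and the pairs in the 588 bins were 1.02% to 4.91% of what each of the 10 made in H3K27me3-RADIP. Tenm4 had 11573 pairs in 453 bins in H3K27me3-RADIP and 8679 in 285 bins in Input. Msi2 had 7270 pairs in 243 bins and 5402 in 137, and Fgfr2 15044 in 542 and 10821 in 376. Each of these 3 was listed in more bins in H3K27me3-RADIP than in Input. The largest combination was Msi2 on the bin of Col1a1 (chr11:94925001-94950000), with 34 of 49 pairs there at 6415 kb. Col1a1 RNA, a fibroblast collagen marker, had 7 pairs in all of H3K27me3-RADIP and 0 in Input. All 7 lay in this bin, where the rule allows no Input pair. The part of other cells in these 7 pairs was not tested.

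Malat1, the nuclear speckle lncRNA, had 76 pairs in 8 bins, of which 67 were *trans* and 9 were on its own chromosome 19 at 39865 kb. Gm22973, annotated as a short noncoding RNA on chromosome 12, had 66 pairs in 7 bins, all *trans*. Each of their bins held 9 to 12 of these pairs, close to the lowest listed number. Malat1 had more pairs in H3K27me3-RADIP than in Input (2653 against 1494) and Gm22973 fewer (1822 against 3006). Kcnq1ot1 made 33 pairs in 4 bins between 14832 and 32410 kb from its tags, and Pvt1 25 in 3 bins from 4934 kb on. Gm2164 and Gm7706 were local instead: Gm2164 made 25 of the 40 pairs of chr4:124625001-124650000 at a median of 3.27 kb, and Gm7706 made 20 of the 34 pairs of chr8:15175001-15200000 at 2.75 kb. The remaining RNAs outside the coding and lncRNA classes were Gm5743 with 11 pairs, AC119183.1 with 10 and Ptprv with 9, each in 1 bin. Gm5743 and Ptprv had no other pair in H3K27me3-RADIP and none in Input, where the rule allows no pair in these bins.

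The 588 bins held 6192 RNA tags in H3K27me3-RADIP, with a lowest value of 1, a median of 10 and a highest of 72, and 1096 in Input, with a highest of 18. In Input 295 bins had no RNA tag and 293 had at least 1, 49.8%, and 559 bins had fewer than in H3K27me3-RADIP. The share with an Input RNA tag was 27.05% of the 122 bins found with bins shifted by 12.5 kb, and 17.1% of the 76 bins with no Input pair in either neighbour. The rule asked only for an RNA tag in H3K27me3-RADIP. Bins of both tables with 20 to 40 pairs held 311961 and 307975 RNA tags. The Input-only bins went the other way, with 6566 RNA tags in Input and 2428 in H3K27me3-RADIP. In the 588 bins 73.2% of the local RNA tags (72.1–74.3%) had their DNA tag in the same bin, against 49.8% in the Input-only bins and 29.4% in bins of both tables with 20 to 40 pairs. A pair with both tags in such a bin cannot be in Input under the rule, so part of the difference in local RNA tags follows from it.

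Local RNAs had 584 names, and 237 of them, 40.6%, had no pair anywhere in Input. Over all RNA names in H3K27me3-RADIP, 17.9% had none, and over the 1114 contacting names 19.8% had none, near that background. Pairs of local RNAs within these bins cannot be in Input under the rule, so part of the 40.6% follows from it. Some contacts that were missing from these bins in Input were listed there in the adjacent bin. Of 1428 *cis* combinations of an RNA name and a bin, 1199 were of RNAs that Input listed on the same chromosome, and for 651 of these, 54.3%, Input listed the same RNA in the adjacent bin. For 605, 50.5%, the bin lay outside the stretch over which Input listed the RNA.

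The bins were scattered, with 535 alone and 53 in 26 runs of adjacent bins, of which 25 had 2 bins and 1 had 3. The run of 3 was chr7:125550001-125625000, over Il4ra and Il21r, both cytokine receptor genes, with 110 pairs led by 41 of Gtf3c1 and 30 of Fgfr2. A pair of bins at Wnt3a (chr11:59250001-59300000) held 108 pairs, 34 of them of Arf1 and 21 of Wnt3a. The pair at Rgs8 (chr1:153650001-153700000) held 91, with 31 of Rgs8. The pair at Mrvi1 (chr7:110875001-110925000) held 77, from 7 RNAs. That at Phf19, a PRC2 accessory subunit gene (chr2:34875001-34925000), held 67, with 21 of Phf19. These 21 were all the pairs of Phf19 RNA in H3K27me3-RADIP. It had none in Input, where the rule allows no pair in these bins.

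The nearest bin that Input listed was the adjacent one for 512 of the 588 bins, and both neighbours were listed for 259. The farthest was 650 kb away, for chr1:173350001-173375000 at Aim2 and Cadm3, and the next was 450 kb, at Pou4f1. Pairs in the flanking bins were counted in both tables and divided by the table totals. At 25 kb the H3K27me3-RADIP to Input ratio was 1.43, from 19527 and 12557 pairs, and it came down to 1.30 at 50 kb, 1.14 at 100 kb, 1.05 at 500 kb and 1.01 at 1 Mb. Flanks of bins that both tables listed with 20 to 40 pairs had 0.930 at 25 kb and 1.02 at 1 Mb. Flanks of the Input-only bins had 0.672 at 25 kb, 0.781 at 100 kb and 0.915 at 1 Mb, and reached 1.02 at the highest, at 900 kb. The excess of H3K27me3-RADIP pairs thus reached past the bins themselves and was largest within 100 kb. Flanks share RNAs with the bins they adjoin, and the ratios have no replicate error.

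**Figure D3:**
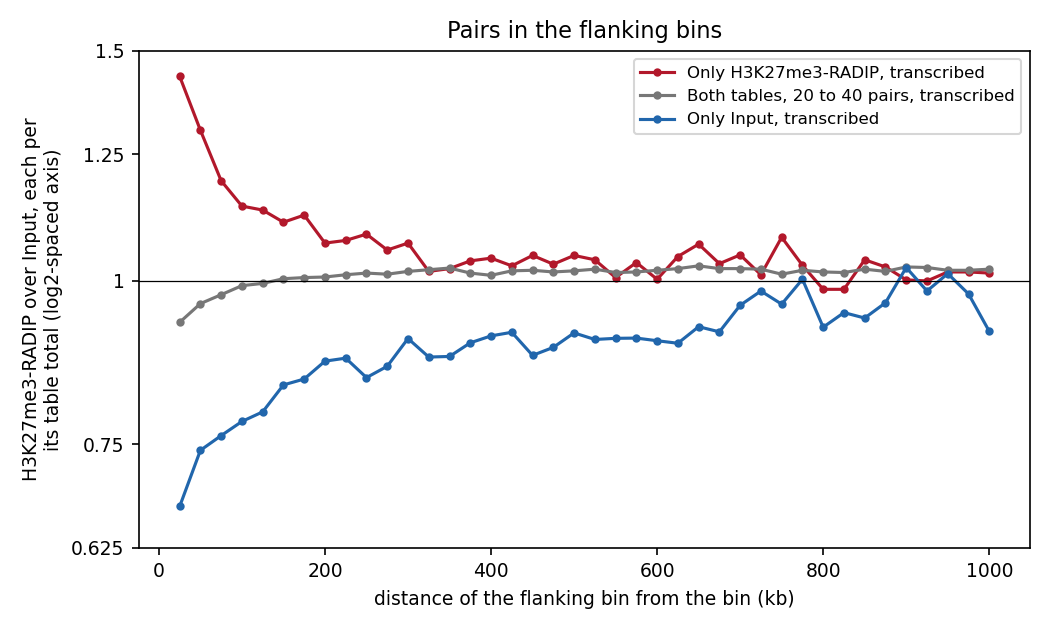
Ratio of H3K27me3-RADIP to Input pairs, each divided by its table total (vertical axis, log2-spaced), in bins at a given distance on either side (horizontal axis, kb) of the transcribed bins listed only in H3K27me3-RADIP (red), in both tables with 20 to 40 pairs (grey) and only in Input (blue). The red line started at 1.43 at 25 kb and reached 1.01 at 1000 kb, while the blue line started at 0.672.

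A protein-coding gene overlapped 552 of the 588 bins, and 266 of them, 45.2% (41.3–49.3%), held a protein-coding start site. The share was 27.5% in bins of both tables with 20 to 40 pairs and 36.8% (32.1–41.7%) in the Input-only bins. In 216 bins a gene that starts there was also the gene of a local RNA tag. DNA tags within 2 kb of a start site were 11.9% of all DNA tags in the bins, where such positions were 8.86% of the bases, a ratio of 1.34. This ratio was 1.23 in bins of both tables with 20 to 40 pairs and 1.14 in the Input-only bins, and 1.36 in the bins listed only in H3K27me3-RADIP without local RNA. There were 1.16 DNA tags per kb in the interval from 2 to 1 kb before the start and 1.76 in the first kb after it. A rise was also present in the other sets. It went from 1.01 to 1.84 in bins of both tables with 20 to 40 pairs and from 0.804 to 1.46 in the Input-only bins. In the bins listed only in H3K27me3-RADIP without local RNA it went from 1.13 to 1.54.

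Promoters in these bins were CpG-rich about as often as promoters of the whole genome. A promoter was counted as CpG-rich when its 300 bases had at least 55% GC and an observed over expected CpG ratio of at least 0.6. Of 310 RefSeq promoters in the 588 bins 139 passed, 44.8% (39.4–50.4%), against 42.5% of all 20150 promoters, 60.1% in bins of both tables with 20 to 40 pairs and 66.3% in the Input-only bins. At the RefSeq starts used, the Hmx1, Wnt3a and Sema6b promoters shown above passed this definition, and those of Tfap2a and Tmprss9 did not. Whole bins gave another order. Median GC content was 47.1% in the 588 bins, 44.2% in bins of both tables and 40.5% in the Input-only bins, and CG dinucleotides were 12.5, 10.8 and 8.16 per kb. Repeat-masked sequence was 22.2%, 24.6% and 31.3%. Base composition thus moved with the table in which a bin was listed, and its part in the listing was not tested.

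**Figure D4:**
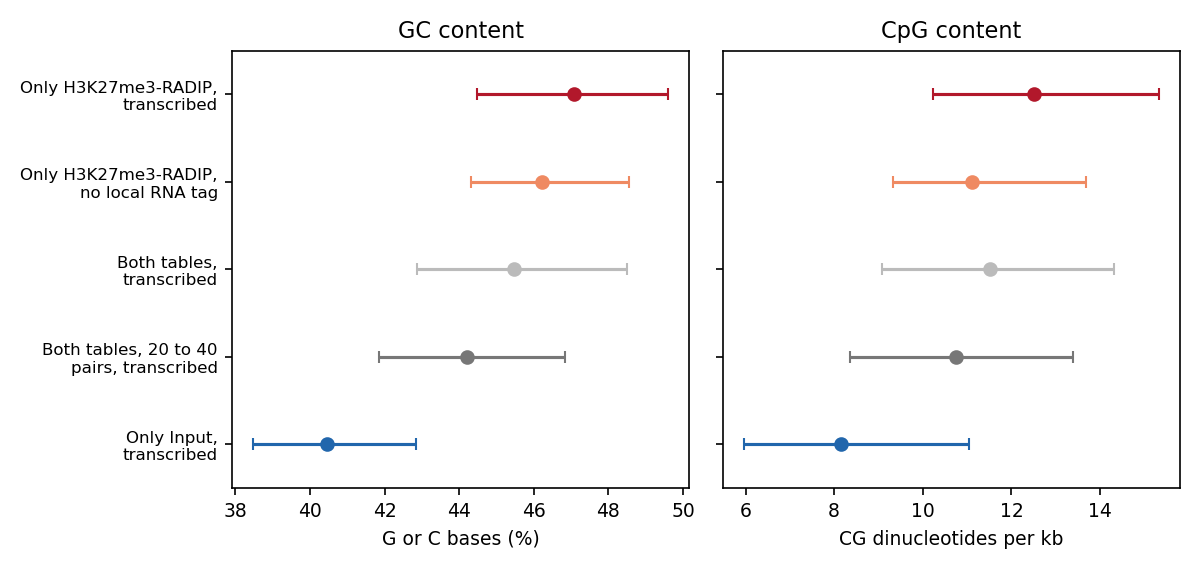
GC content (left, percent of bases) and CG dinucleotides per kb (right) of whole 25-kb bins, for 5 sets of bins on the vertical axis. Points are medians and bars run from the first to the last quartile. Bins listed only in H3K27me3-RADIP with local RNA sat at 47.1% GC and those listed only in Input at 40.5%.

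Genes were then grouped by role. Of 7342 protein-coding genes that start in transcribed H3K27me3-RADIP bins of at least 20 pairs, 349, 4.75% (4.29–5.26%), started in the 588 bins. For the mirror set it was 190 of 6835, 2.78%. Developmental transcription factors gave 17 of 149, 11.4% (7.25–17.5%), and 1 of 88 in the mirror set. Signalling ligands and receptors gave 11 of 94, 11.7% (6.66–19.8%), and 1 of 65. Neuronal adhesion genes gave 12 of 71, 16.9% (9.94–27.3%), and 0 of 45, and ion channel genes 11 of 103, 10.7% (6.07–18.1%), and 0 of 59. Genes that start in the same bin are not independent: the 17 factors lay in 13 bins and the 12 adhesion genes in 8. With genes taken as independent, the shares of these 4 groups stood above that of all genes in H3K27me3-RADIP by more than counting error. Of the transcribed bins that hold a start of a factor, 13 of 134 were among the 588. Such bins were 11 of 93 for signalling, 8 of 52 for adhesion, 10 of 101 for ion channels and 266 of 5669 for all genes. No interval was made for these bin counts. In Input each count of genes was 0 or 1, within counting error of the share of all genes. The bins of the factors had a median GC content of 49.3% and 22.4 CG per kb.

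Other groups were at or near the level of all genes or had no gene there. Extracellular matrix genes gave 4 of 67, 5.97% (2.35–14.4%), among them Col1a1 and the integrin gene Itga11. Zfp zinc finger genes gave 6 of 88, 6.82%, with 5 of 89 in the mirror set. Polycomb subunits gave 1 of 19, Phf19, and the mirror set held 1 of 20, Ezh2. Imprinted genes gave 1 of 31. Pluripotency genes gave 0 of 17, which allows a share of up to 17.6%, and ribosomal protein genes 0 of 48, which allows up to 6.25%. Olfactory and vomeronasal receptor genes had 2 starts in these bins and 0 in the 588.

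**Figure D5:**
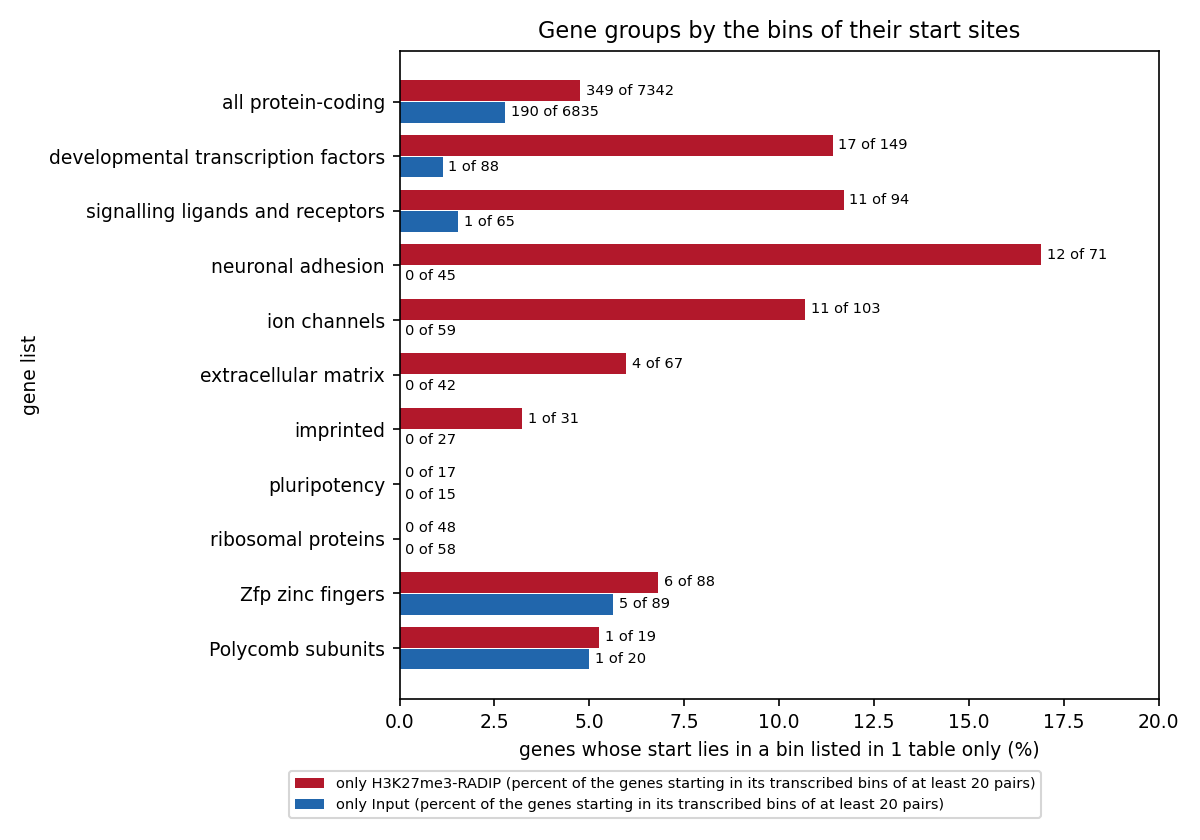
Percent of the genes of each group (vertical axis) whose start lies in a bin listed in 1 table only (horizontal axis), for H3K27me3-RADIP (red) and Input (blue), with the counts beside the bars. Developmental factors stood at 17 of 149 and 1 of 88, all protein-coding genes at 349 of 7342 and 190 of 6835, and ribosomal protein genes at 0 in both.

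Of the 17 developmental factors, 10 had RNA tags of their own in the bin, 6 had no pair as RNA anywhere in H3K27me3-RADIP, and 6 were listed as RNA in H3K27me3-RADIP only. Their pairs within these bins could not be in Input under the rule. The Hox genes, which pattern the body axis, gave 7 of the 17. Hoxc10, Hoxc11 and Hoxc5 start in chr15:102950001-102975000, which held 30 pairs, 16 of them of Cbx5 (the gene of HP1 alpha) at 240 kb and 7 each of Hoxc10 and Hoxc5. Hoxc4 starts in chr15:103000001-103025000, with 48 pairs, 18 of Hoxc5, 14 of Cbx5, 8 of Hoxc4 and 8 of Pvt1 at 40881 kb. Transcript models of Hoxc5 and Hoxc6 overlap on the same strand, and so do the gene models of Hoxc10 and Hoxc5. Hoxc10 ends at chr15:102971893 and Hoxc5 starts at chr15:102967443 in the release used. How the reads of these genes were split is therefore uncertain. The gene model of Hoxc4 starts after the end of Hoxc5. Hoxb3, Hoxb4 and Hoxb5 start in chr11:96300001-96325000, where none of the 40 pairs was local: Igf2bp1 made 14 at 318 kb, Msi2 10 at 7796 kb, and the lncRNA Gm53 and Skap1 8 each. That bin had 1 RNA tag in H3K27me3-RADIP and 2 in Input.

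The other factors fell into loci with and without RNA of their own. Pou4f1, a POU factor of sensory neurons, had 10 of the 31 pairs of chr14:104450001-104475000, beside 13 of Rbm26 at 699 kb and 8 of Diaph3 at 17707 kb. Nr2f2, an orphan nuclear receptor of vessels and mesenchyme, made 11 of the 22 pairs of chr7:70350001-70375000 and Tenm4 the other 11, from 26115 kb away. Foxn1, the thymic epithelium factor, made 8 of 25 pairs and Nlk 17, while Ets1 made 8 of 20 and Arhgap32 12. Bcl11a made 16 of 24, and Cdx1, in the bin where the receptor gene Pdgfrb also starts, 9 of 38. Pairs of these RNAs over the whole tables were 10 for Pou4f1, 11 for Nr2f2 and 8 for Foxn1 in H3K27me3-RADIP, with 0 in Input. All of these pairs lay in the bin of the gene, where the rule allows no Input pair. Cdx1 had 9 in H3K27me3-RADIP and 7 in Input, Ets1 64 and 20, and Bcl11a 85 and 56. Hand2, Neurog3 and Nkx2-3, factors of heart and limb, endocrine pancreas, and gut and spleen, had no pair as RNA in either table. The RNA found in their bins was that of other genes, near and far: Hand2os1, the opposite-strand lncRNA of Hand2, made 11 of 22 pairs at a median of 0.299 kb and Galnt7 the other 11, at 309 kb. At Neurog3 it was Tet1 with 15 at 718 kb and Fam241b with 8, and at Nkx2-3 Got1 with 12, Cnnm1 with 9 and Gm20467 with 7.

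Among the signalling genes, Wnt3a, Sema6b, Efna2 and Epha1 RNA was listed in H3K27me3-RADIP only, with 21, 16, 8 and 8 pairs. Bmp1 RNA had 49 pairs in H3K27me3-RADIP and 8 in Input, Ephb1 220 and 63, Sema7a 23 and 9, and Bmp6 73 and 49, while Nrg4 had 8 and 9 and Pdgfrb 12 and 11. Fgf11 had none in either table, and in its bin Nlgn2 made 18 pairs and Gm22973 9. Efna2 and Epha1, an ephrin and an Eph receptor gene, made 8 of 27 and 8 of 28 pairs in their bins, and Ephb1 made 14 of 23. In the Bmp6 and Nrg4 bins (30 and 41 pairs) the genes themselves made no pair.

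In the neuronal adhesion group 6 of the 12 were Pcdhb protocadherin genes, which start in 2 bins of chromosome 18 with 24 and 20 pairs and had no pair of their own; Gm42416 and Diaph1 made all pairs there. Adgrb1 had 27 of 48 pairs in its bin and Sdk2, Cdh6 and Dlgap3 had 19, 14 and 13 in theirs. Of the ion channel genes, Grid1 made all 21 pairs of its bin and Kcna6 15 of 26, and Cacna1s 12 of 45. The 1 imprinted gene was Slc22a3, an organic cation transporter gene that is imprinted in placenta (chr17:12500001-12525000). Its bin held 42 pairs: 16 of Agpat4 at 348 kb, 10 of the imprinted lncRNA Airn at 264 kb, 8 of Igf2r at 206 kb and 8 of Slc22a3.

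By chromosome, the 588 bins were between 1.63% and 4.05% of the transcribed bins of at least 20 pairs. Chromosome 18 was highest with 28 of 691 (2.82–5.79%) and chromosome 14 next with 35 of 918, 3.81%. Chromosome 8 was lowest with 26 of 1594 (1.12–2.38%), followed by the X chromosome with 6 of 361, 1.66% (0.764–3.58%). Most neighbours in this order overlapped within their intervals. The mirror set was differently placed, with 33 of 501 bins, 6.59%, on the X chromosome.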

How the data were processed

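Libraries of PGK12.1 mESCs made with anti-H3K27me3 selection and without it number 8 per group in the labels, and the authors merged each group into 1 table. The authors mapped tags to mm10, kept unique pairs outside blacklisted regions, annotated RNA tags with GENCODE, and kept pairs with a q-value of at most 0.1 from a modified CHiCANE negative binomial model. The submitters' processing notes name BWA 0.7.15-r1140, STAR 2.5.0a and CASAVA 1.8.2. The deposited tables hold this q-value (a p-value adjusted by the authors), coordinates and gene names. All pairs that share an RNA and a bin carry the same q-value. The largest was 0.1 in H3K27me3-RADIP and 0.0999 in Input. No per-sample column was left unused.

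Lines of the tables were counted as pairs and binned by tag centre. Copies from amplification cannot be removed without molecular identifiers. At this depth 3 pairs are 0.000212% of H3K27me3-RADIP and 0.00023% of Input. Gene positions came from GENCODE M21 on the same build, older than the release the authors used, and matched the identifiers of 99.94% of the pairs in the bins. Promoters came from RefSeq (GRCm38). The binning rule was tested on simulated data. Python 3.11.15, numpy 2.4.6, pandas 2.3.3, scipy 1.17.1 and matplotlib 3.10.9 were used.

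The bins and gene lists were chosen with earlier results of these data known. Named were the 12 bins with the most pairs, of which 1 is not reported here, the 10 with the most RNAs, the 5 longest runs, the 10 leading RNAs by pairs and by bins, the 5 leading lncRNAs by pairs, RNAs of other classes, listed transcription factors, signalling and imprinted genes that start in the bins, and up to 4 examples of other lists. The Pcdhb, Phf19, Aim2 and Cadm3 loci and Ezh2 were named after their values were seen. Alternatives were other pair minimums, unique tag positions, a q-value limit of 0.01, more local RNA tags, other bins, and leaving out Tenm4. Raw pairs, ChIP and RNA expression were not used here.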

Additional observations from a re-analysis of the deposited data

How the results depend on the processing

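Results compared 588 bins and 386 mirror bins under 10 alternatives, the last of them added after the data were seen (a q-value of at most 0.01 in H3K27me3-RADIP only). With at least 10 pairs there were 1917 bins and 1772 mirror bins, 41.5% of pairs were over 100 kb and 30.7% of bins held a start site. With at least 30 pairs these were 176, 77, 57.1% and 54.0%. Bins of 50 kb left 333 bins, with 48.3% and 52.9%. Bins shifted by 12.5 kb left 122 and 68 mirror bins with 50.1% of pairs over 100 kb. The shift sets each bin across 2 bins of the authors' test, both of which must lack Input pairs in its range. With no Input pair in either neighbour 76 and 40 were left, with 53.4% and 52.6%. The added limit gave 341 and 830 mirror bins, with 49.4% of pairs over 100 kb. That share was 52.9% with tag positions counted once, 50.2% at a q-value of 0.01 in both tables and 49.0% with at least 5 RNA tags. Over all 10 alternatives it ranged from 41.5% to 57.1%, and the start site share from 30.7% to 54.0%. Leaving out Tenm4 gave 583 bins. The cause of the changes, that under the shift included, was not tested. Since the smallest listed combination had 7 pairs, a bin just under the authors' limit in Input counts as absent. No paired analysis was possible because the authors merged the replicates into 1 table per group, and for the same reason no library could be left out.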
